A study of Drosophila melanogaster with 20 samples.

Results

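The transcripts described here were higher in heads of ATM8 homozygous flies than in heads of ATM8/+ heterozygotes. Their mean level moved little with RNA interference against ATM in glia or in neurons. They were chosen by their measured values: 101 of 15473 transcripts on the array met the rule. The homozygote mean had to exceed the heterozygote mean by at least 0.8 on the log2 scale. Both homozygote arrays had to lie above both heterozygote arrays. The difference between RNA interference flies and their driver control had to lie between -0.5 and 0.5 for each of the 3 drivers. These values therefore describe the members and test nothing.

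ATM is a protein kinase that is switched on by DNA breaks and passes the signal to repair, cell cycle and cell death factors. In the fly it also protects chromosome ends, and its gene there is tefu. ATM8 is a temperature-sensitive allele, and its flies were reared in the cool and shifted to a warmer temperature as adults. In the GAL4 system a driver gene expresses the yeast GAL4 protein in a chosen cell type, where it turns on a transgene placed behind UAS sites, here an RNA interference construct against ATM.

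Total RNA of adult Drosophila melanogaster heads was hybridised to 20 single-colour arrays, 1 per sample, covering 8 genotypes. The 2 ATM8/+ and the 2 ATM8/ATM8 samples carried the allele on the genetic background pp e1, were reared at 18°C until collection at 0 to 3 days after eclosion and were then held for 3 days at 25°C. The other 16 samples were on the background w1118, were reared at 25°C, were held for the same 3 days at 25°C and were aged 4 to 6 days. They comprised Repo-GAL4/+ (2 samples) and Repo-GAL4/UAS-RNAiATM (Repo-ATMi, 2 samples), with a driver that acts in glia, and Elav-GAL4/+ (4 samples) and Elav-GAL4/+ with UAS-RNAiATM/+ (Elav-ATMi, 4 samples), with a neuronal driver on chromosome 2. A further neuronal driver, on the X chromosome, gave ElavC155-GAL4/+ (2 samples) and ElavC155-GAL4/+ with UAS-RNAiATM/+ (ElavC155-ATMi, 2 samples). The heterozygous controls carry 1 copy of the allele, and the driver controls carry no RNA interference transgene, so presence of that transgene goes together with the interference. Whether the heterozygotes carried the pp e1 background on both copies of its chromosome is not given in the sources used here. Variants linked to the ATM8 allele, and any background variant that the heterozygotes carried in 1 copy, become homozygous together with the allele and cannot be told apart from it. Genetic background and rearing temperature both separate the ATM8 samples from the 16 others and cannot be told apart from each other. The number of flies per sample is not given in the sources used here.

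Each value is an RMA level on the log2 scale, so that a difference of 1 is a 2-fold change. The array medians lay between 10.45 and 10.63 for the 8 ATM8 and Repo arrays and between 10.84 and 10.93 for the 12 neuronal-driver arrays, which therefore form separate sets of distributions. The lowest correlation between replicate arrays, across transcripts, was 0.976. Head RNA holds many cell types, and fewer cells of a type cannot be told apart from less RNA per cell. Rows of the table are FlyBase transcript identifiers, and 0 of the 101 members could be paired with a gene. The members are therefore described by identifier, level and pattern, and roles are not given. None of the genes looked for as markers of head cell types, immunity, DNA damage or stress, tefu among them, had a row that could be paired (0 matched). The labelled tissue was therefore not checked against markers, and whether RNA interference lowered ATM RNA was not checked either.

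Members were usually raised by about 2-fold. The difference between homozygotes and heterozygotes ran from 0.80 to 5.92 on the log2 scale with a median of 0.98, which is 1.74-fold to 60.6-fold with a median of 1.97-fold. It reached 1 for 44 members and 2 for only 4 of the 101. The homozygote arrays lay above the heterozygote arrays for 22.9% of all transcripts, and for 1.63% they did so with a difference of at least 0.8, which was 252 transcripts. Of these 252, the 151 that are not members moved by 0.5 or more with at least 1 driver: 58 with the glial driver alone, 36 with a neuronal driver alone and 57 with both kinds. The mirror rule, for lower levels in homozygotes, found 90 transcripts.

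FBtr0080464 stood apart from every other member. Its level was 7.98 and 7.43 in the 2 heterozygote samples and 13.23 and 14.03 in the 2 homozygote samples. In Repo-GAL4 it was 8.18 and 7.73, and in Repo-ATMi 8.04 and 8.75. The heterozygotes were thus level with the glial pair, and both homozygote samples were far above every other array. The Elav-GAL4 samples had levels of 7.64, 7.42, 7.00 and 6.45, and the Elav-ATMi samples 7.14, 7.35, 6.85 and 7.45. The ElavC155-GAL4 samples had 7.50 and 7.59, and the ElavC155-ATMi samples 7.90 and 7.60. Across all 16 driver arrays the highest value was 8.75, so the lower homozygote sample exceeded it by more than the replicates of any genotype differed. The difference of 5.92 had a standard error of 0.36 from limma, a linear model fitted across all transcripts that pools the spread of replicates.

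FBtr0082572, FBtr0082900 and FBtr0077152 were the other members with a difference above 2. FBtr0082572 had levels of 6.58 and 6.41 in heterozygotes and of 9.04 and 9.72 in homozygotes, against 5.29 to 6.17 over the 16 driver arrays. Both heterozygote samples were therefore already above all driver arrays, and the homozygotes were higher again, by 2.89 ± 0.28 (SE, n = 2 each). FBtr0082900 had levels of 7.25 and 7.12 in heterozygotes and of 9.64 and 10.29 in homozygotes, a difference of 2.78 ± 0.28 (SE, n = 2 each). Its mean was 6.96 in Repo-GAL4 and 7.41 in Repo-ATMi but 5.62 in Elav-GAL4 and 6.26 in ElavC155-GAL4. In all 3 driver pairs its mean was higher with RNA interference than without, by 0.45, 0.39 and 0.39, close under the bound of the rule. FBtr0077152 had levels of 5.56 and 5.95 in heterozygotes and of 8.01 and 8.46 in homozygotes, while the 16 driver arrays lay between 5.03 and 5.80.

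**Figure D1:**
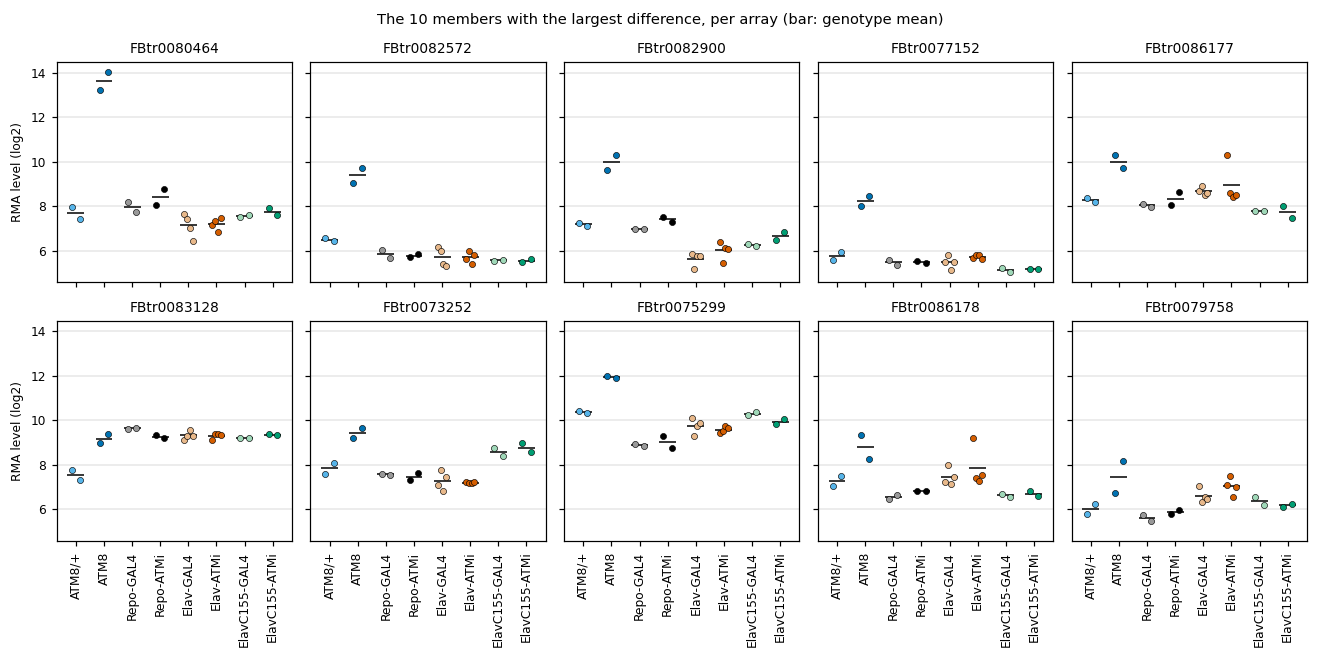
RMA levels (log2, vertical axis) of the 10 members with the largest difference between ATM8 homozygotes and heterozygotes, 1 point per array and a bar at each genotype mean. FBtr0080464 reaches 13.23 and 14.03 in homozygotes and at most 8.75 in the driver arrays, whereas FBtr0083128 is at 7.77 and 7.31 in heterozygotes and at 9.10 or above everywhere except in the ATM8 genotypes.

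The next 6 members by size differed by 1.43 to 1.71, and 2 of these differences varied widely with the homozygote array kept. The 1.43 of FBtr0079758 became 2.13 without homozygote replicate 1 and 0.72, below the limit of the rule, without replicate 2. The 1.56 of FBtr0086178 became 1.01 without homozygote replicate 1 and 2.10 without replicate 2, above the limit of the rule either way. Of these 6, FBtr0086177, FBtr0086178 and FBtr0079758 did not pass limma's adjusted p under 0.05 between homozygotes and heterozygotes (0.069, 0.15 and 0.065). FBtr0086177 and FBtr0086178, whose identifiers are consecutive, moved together across arrays. FBtr0086177 had levels of 8.35 and 8.19 in heterozygotes and of 10.28 and 9.69 in homozygotes. FBtr0086178 had 7.04 and 7.48 in heterozygotes and 9.36 and 8.27 in homozygotes. Both were also high in 1 Elav-ATMi sample, replicate 1, at 10.28 for FBtr0086177 and 9.23 for FBtr0086178. The other 3 Elav-ATMi samples lay between 8.42 and 8.57 and between 7.28 and 7.55. The high homozygote level of these transcripts was thus reached in a neuronal RNA interference sample, and their differences with the Elav driver, 0.29 and 0.41, became -0.16 and -0.04 without that sample. Whether the identifiers share probes is not given in the sources used here.

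FBtr0083128 had the reverse arrangement. Its level was 7.77 and 7.31 in heterozygotes and 8.98 and 9.39 in homozygotes, and the 16 driver arrays lay between 9.10 and 9.67. The homozygotes were level with the driver genotypes and the heterozygotes were below all of them. FBtr0075299 had levels of 10.43 and 10.34 in heterozygotes and of 12.01 and 11.92 in homozygotes, against 8.78 to 9.28 in the 4 Repo arrays and 9.32 to 10.39 in the neuronal-driver arrays. FBtr0073252 had 7.59 and 8.09 in heterozygotes and 9.21 and 9.66 in homozygotes. FBtr0079758 had the widest spread of these 6: 5.80 and 6.25 in heterozygotes against 6.75 and 8.16 in homozygotes. The lower homozygote sample of FBtr0079758 lay inside the range of the driver arrays, 5.47 to 7.51.

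The gap between the lowest homozygote array and the highest heterozygote array had a median of 0.70 over the 101 members. It was at least 0.8 for 33 of them, under 0.3 for 9 and under 0.1 for 3, with a lowest value of 0.01. At the edge of the rule, FBtr0087718, FBtr0070444 and FBtr0082569 had differences of 0.81, 0.80 and 0.80 and are members. FBtr0083938, FBtr0079830 and FBtr0080449, at 0.80, 0.80 and 0.79 (0.7988, 0.7955 and 0.7948 before rounding), met the other conditions and are not.

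With limma, 44 of the 101 members passed an adjusted p under 0.05 as higher in homozygotes, where 0.95% of all transcripts did. The rule used this contrast, so nothing is read from that count. The median standard error of the difference was 0.25, and each genotype had 2 samples. The count was lower without any 1 of the ATM8 arrays, and so was the share of all transcripts called. It was 22 when only the 4 ATM8 arrays were fitted. There 0.769% of all transcripts were called in either direction, against 1.59% in the main fit. The fall was therefore not particular to the members.

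With RNA interference the members' differences were scattered around 0, as the rule required. They ran from -0.50 to 0.48 with the glial driver (median 0.06, above 0 for 57 of 101), from -0.43 to 0.49 with the Elav driver (median -0.04, 42 above 0) and from -0.48 to 0.48 with the ElavC155 driver (median 0.04, 55 above 0). The medians over all transcripts were -0.02, -0.01 and 0.01. The shares above 0 were 56.4%, 41.6% and 54.5% of members and 47.9%, 46.9% and 51.3% of all transcripts. At limma's adjusted p under 0.05, 0 members passed in the glial comparison, where 4.25% of all transcripts did, 0 with the Elav driver (1.62%) and 0 with the ElavC155 driver (0.504%). At an unadjusted p under 0.05 the counts were 7, 6 and 1, where 17.1%, 9.16% and 6.32% of all transcripts passed. The rule used these contrasts as well.

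A mean difference inside the bounds does not place each member there with certainty. The 95% interval of the difference, from limma's standard error, lay wholly inside the bounds for 11 members with the glial driver, 44 with the Elav driver and 15 with the ElavC155 driver, and for 5 members with all 3. The median half-width of that interval was 0.54 with 2 samples per genotype and 0.38 with 4. Set directly against each other, the ATM8 effect exceeded the glial effect for 17 members at limma's adjusted p under 0.05 (0.666% of all transcripts), the Elav effect for 32 (0.911%) and the ElavC155 effect for 12 (0.388%). It exceeded all 3 effects for 9 members and none of them for 67. The rule used both effects of each such difference, so nothing is read from these counts.

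**Figure D2:**
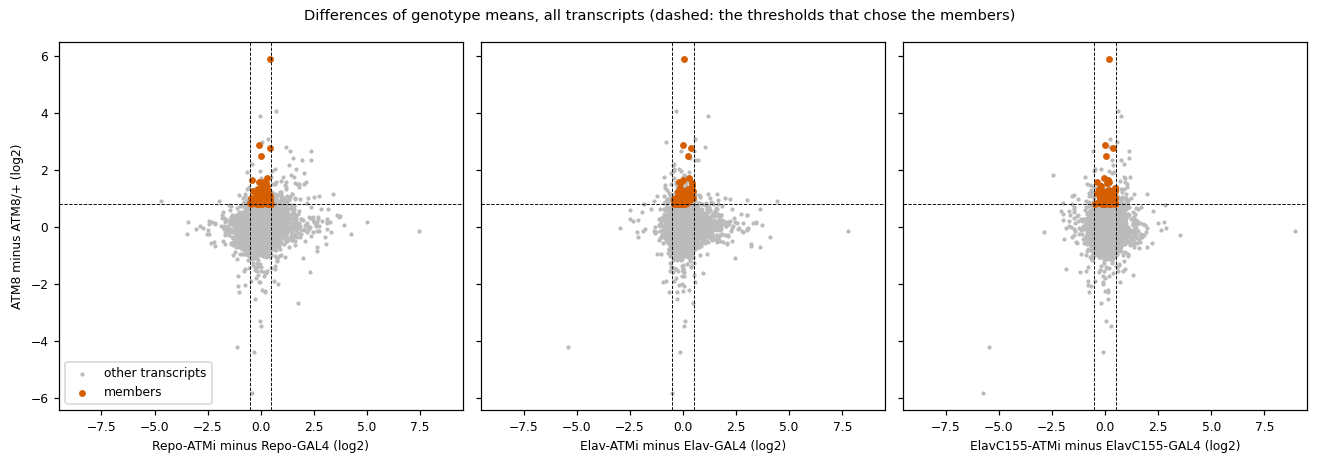
Difference between ATM8 and ATM8/+ (log2, vertical axis) against the difference with each driver (log2, horizontal axes), 1 point per transcript, with the 101 members in orange. The dashed lines at 0.8 and at -0.5 and 0.5 are the limits that chose the members, and most members lie close above the lower limit, with a median of 0.98.

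Where the 2 ATM8 genotypes stood relative to the others divided the members into several patterns that the rule did not ask for. For each member the heterozygote arrays and the homozygote arrays were set against the range of the 16 driver arrays. This shares the ATM8 arrays with the rule and is a description. For 40 members both homozygote arrays lay above that range and the heterozygotes did not lie outside it, a position held by 4.33% of all transcripts. For 13 members both heterozygote arrays lay below the range and the homozygotes were not outside it (3.31% of all transcripts). For 10 members both genotypes lay above it (2.64%), for 1 both lay below it (8.07%), and for 37 neither lay wholly outside it (74.5%).

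The 40 members with a homozygote level above the driver genotypes include FBtr0080464, FBtr0082900, FBtr0077152, FBtr0073252 and FBtr0075299. Their median difference between homozygotes and heterozygotes was 1.00, against 0.92 in the 13 members with a low heterozygote level. Against the 4 Repo arrays alone, which belong to the same set of array distributions as the ATM8 arrays, these counts were 45 and 13. There the corresponding shares of all transcripts were 9.71% and 5.51%. A further 12 members had heterozygotes below and homozygotes above the Repo range (0.259%). The 13 members with a low heterozygote level were in part different ones in the 2 comparisons. FBtr0088675 was among them against the 16 driver arrays only, since its homozygotes lay above the Repo range. FBtr0082359 was among them against the Repo arrays only.

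In 10 members the heterozygotes were already above every driver array, and the homozygotes were higher still. FBtr0084832 showed this most widely. Its level was 9.05 and 9.20 in heterozygotes and 9.95 and 10.71 in homozygotes, and the 16 driver arrays lay between 5.65 and 6.25. The heterozygote mean was thus 9.05-fold above the mean of the driver arrays, and the homozygote mean a further 1.21 on the log2 scale above that. FBtr0076559 had levels of 11.67 and 11.57 in heterozygotes and of 12.57 and 12.72 in homozygotes, against 8.51 to 10.59 in the driver arrays. FBtr0083502 had 9.61 and 9.12 in heterozygotes and 10.41 and 10.40 in homozygotes, against 6.79 to 8.49. FBtr0085182 had 7.03 and 6.43 in heterozygotes and 7.57 and 7.61 in homozygotes, against 4.67 to 5.24. For these 4 members, all but FBtr0085182 chosen after their values were seen, the step between the backgrounds was larger than the step between homozygotes and heterozygotes: 3.18, 2.01, 1.69 and 1.73 against 1.21, 1.03, 1.04 and 0.85 on the log2 scale. Of all 10 members, 5 had a larger step between the backgrounds and 5 a smaller one, FBtr0082572 among the latter with 0.80 against 2.89. From the mean of the 4 Repo arrays, which belong to the same array set as the ATM8 arrays, the first step of the 4 members shown was 3.34, 2.65, 2.17 and 1.54. Background, rearing temperature and a single copy of the allele go together in that step and cannot be told apart there. Against the 4 Repo arrays alone, 27 members had both ATM8 genotypes above the range, where 17.4% of all transcripts did.

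**Figure D3:**
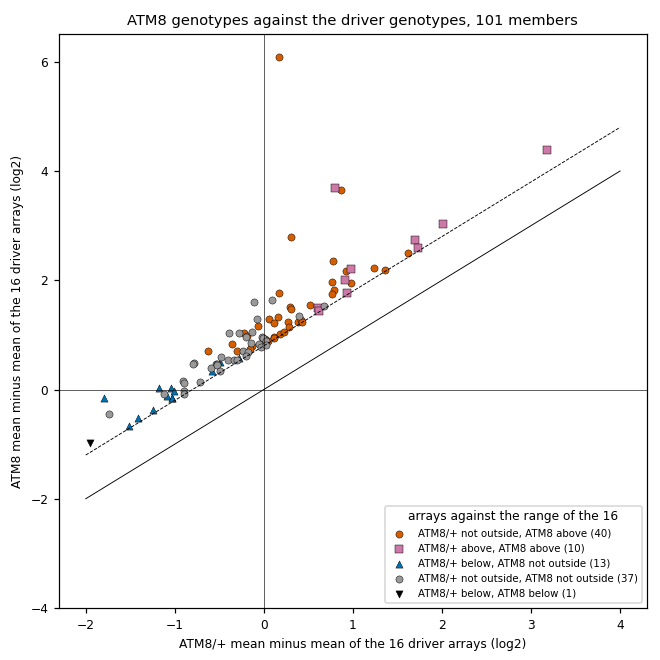
Mean level of ATM8/+ (horizontal axis) and of ATM8 (vertical axis) for each of the 101 members, both minus the mean of the 16 driver arrays (log2). The solid line marks equal levels and the dashed line a difference of 0.8. Members with both genotypes above the range of the driver arrays (10, squares) extend to 3.18 in heterozygotes, and the 13 triangles have heterozygotes below that range.

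The 14 members whose heterozygotes lay below the driver range were FBtr0083128 and 13 others with differences of 0.84 to 1.21. FBtr0083759 was the one in which homozygotes stayed below as well, with a mean of 7.27 in heterozygotes, 8.24 in homozygotes and at least 8.33 in every driver array. FBtr0088675 had levels of 6.40 and 6.64 in heterozygotes and of 7.60 and 7.86 in homozygotes. Its 4 Repo arrays lay between 7.02 and 7.36, below the homozygotes, while its Elav-GAL4 arrays lay between 8.26 and 8.53, above them. For FBtr0088675 the place of the homozygotes therefore depends on which driver genotype they are set against. After quantile normalization 12 members had heterozygotes below and homozygotes not outside the driver range (2.66% of all transcripts), in part different ones. FBtr0088675 was then no longer among them, and FBtr0072633 was.

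Members were mostly dim on the array. Their mean level over the 16 driver arrays, which the rule did not use, ran from 4.82 to 13.69 with a median of 7.66, whereas the median over all transcripts was 10.80. By quartiles of all transcripts, 54 members fell in the lowest, 33 in the second, 12 in the third and 2 in the highest. No detection call accompanies these levels, and a fold measured from a dim value may be compressed to an unknown extent. The spread between replicates of the driver genotypes was also larger for members, with a median SD of 0.25 against 0.19 over all transcripts. Among transcripts below the median level it was 0.25 for members and 0.24 for all.

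The dimmest members were FBtr0087436, FBtr0085182 and FBtr0088722. FBtr0087436 had 5.83 and 5.34 in heterozygotes and 7.14 and 5.98 in homozygotes, with driver arrays between 4.35 and 5.35. Its genotypes were separated by only 0.15. FBtr0088722 had 5.01 and 5.73 in heterozygotes and 6.40 and 6.08 in homozygotes. Its Repo arrays, at 5.92 to 6.29, lay above both heterozygotes, and the lower homozygote array fell within their range.

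The brightest were FBtr0076273, FBtr0084810 and FBtr0075471. FBtr0076273 had 13.60 and 13.52 in heterozygotes and 14.69 and 14.30 in homozygotes, and the driver arrays ran from 13.03 to 14.26. FBtr0084810 had 12.20 and 12.24 in heterozygotes and 13.72 and 13.40 in homozygotes, and the driver arrays ran from 12.19 to 13.34. FBtr0075471 had 11.87 and 11.67 in heterozygotes and 12.99 and 13.10 in homozygotes. In the Repo arrays it lay between 11.69 and 12.15, near the heterozygotes, and in the neuronal-driver arrays between 12.25 and 13.28, near the homozygotes. The levels of these bright members were far above the dimmest values of the arrays, which lay at 4.31 and above.

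The neuronal driver controls gave a comparison that the rule did not use, since Elav-GAL4 and ElavC155-GAL4 flies both lack the RNA interference transgene and never entered the same difference. At limma's adjusted p under 0.05, 31 of the 101 members differed between them, 17 higher and 14 lower in ElavC155-GAL4. Over all transcripts 22.1% differed, 10.1% higher and 12% lower, so the members' share of 30.7% was above the background. The median size of the difference was 0.42 for members and 0.26 for all transcripts, and at least a 2-fold difference was measured for 11.9% of members and 5.95% of all. No test of this excess was made. With the dimmest 25% of transcripts left out, 51 members remained and 22 of them differed (43.1% against 25.2% of the transcripts kept). Fitted on the 6 control arrays alone the count was 17, or 16.8% of members against 11.3% of all transcripts. Without ElavC155-GAL4 replicate 1 it was 18 (17.8% against 14.5%). Without ElavC155-GAL4 replicate 2 it was 11 (10.9% against 7.87%), 5 higher and 6 lower.

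FBtr0082377 differed most. Its level was 7.73, 7.31, 7.98 and 8.35 in Elav-GAL4 and 5.99 and 5.78 in ElavC155-GAL4, 3.87-fold lower (log2 difference -1.95 ± 0.24, limma adjusted p = 5.5e-05). Repo-GAL4, at 6.01 and 6.66, was near ElavC155-GAL4, and the ATM8 heterozygotes, at 8.23 and 8.87, were near or above Elav-GAL4. FBtr0070444 was lower in ElavC155-GAL4 by -1.37 ± 0.15 (adjusted p = 1.6e-05) and FBtr0088675 by -1.31 ± 0.14 (adjusted p = 1.5e-05). FBtr0078743 was lower by -1.19 ± 0.18 (adjusted p = 0.0004). In FBtr0070444 the heterozygotes, at 5.30 and 5.03, were level with ElavC155-GAL4, at 5.25 and 5.37. Its homozygotes, at 6.14 and 5.81, were level with Repo-GAL4, at 5.89 and 6.16. The gap between driver controls in FBtr0070444 was thus larger than its gap of 0.80 between homozygotes and heterozygotes. FBtr0085639 had a difference of -1.38 ± 0.43 (adjusted p = 0.031). Its call was lost in 5 of the 10 alternative settings, with adjusted p up to 0.16, among them leaving out Elav-GAL4 replicate 3 (0.066) or replicate 4 (0.05) or either ElavC155-GAL4 replicate (0.16 and 0.12).

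Of the members higher in ElavC155-GAL4, FBtr0088316 differed most, by 1.50 ± 0.32 (limma adjusted p = 0.0043). Its levels were 9.01 and 9.53 in ElavC155-GAL4 and 8.46, 8.01, 7.13 and 7.46 in Elav-GAL4. The call was lost without ElavC155-GAL4 replicate 2 (adjusted p = 0.083), and the groups do not overlap. FBtr0082359 was higher by 1.32 ± 0.22 (adjusted p = 0.00071), FBtr0073252 by 1.29 ± 0.22 (adjusted p = 0.00087), FBtr0072902 by 1.27 ± 0.19 (adjusted p = 0.00038) and FBtr0079603 by 1.09 ± 0.23 (adjusted p = 0.0035).

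The genotype means of FBtr0072902 fell into a lower group (arrays at 5.77 to 6.69) and an upper group (arrays at 7.03 to 7.84). Heterozygotes, at 6.18 and 6.46, and Elav-GAL4, at 6.00, 6.45, 5.77 and 6.30, shared the lower one. Homozygotes, at 7.24 and 7.42, shared the upper one with ElavC155-GAL4, at 7.44 and 7.37, and Repo-GAL4, at 7.54 and 7.84. The means with RNA interference were 6.39 in Elav-ATMi, 7.17 in ElavC155-ATMi and 7.56 in Repo-ATMi. The homozygote mean of FBtr0072902, 7.33, was therefore near that of 2 control genotypes that carry no ATM8 allele, 7.40 in ElavC155-GAL4 and 7.69 in Repo-GAL4. Both Repo-GAL4 arrays lay above both homozygote arrays.

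**Figure D4:**
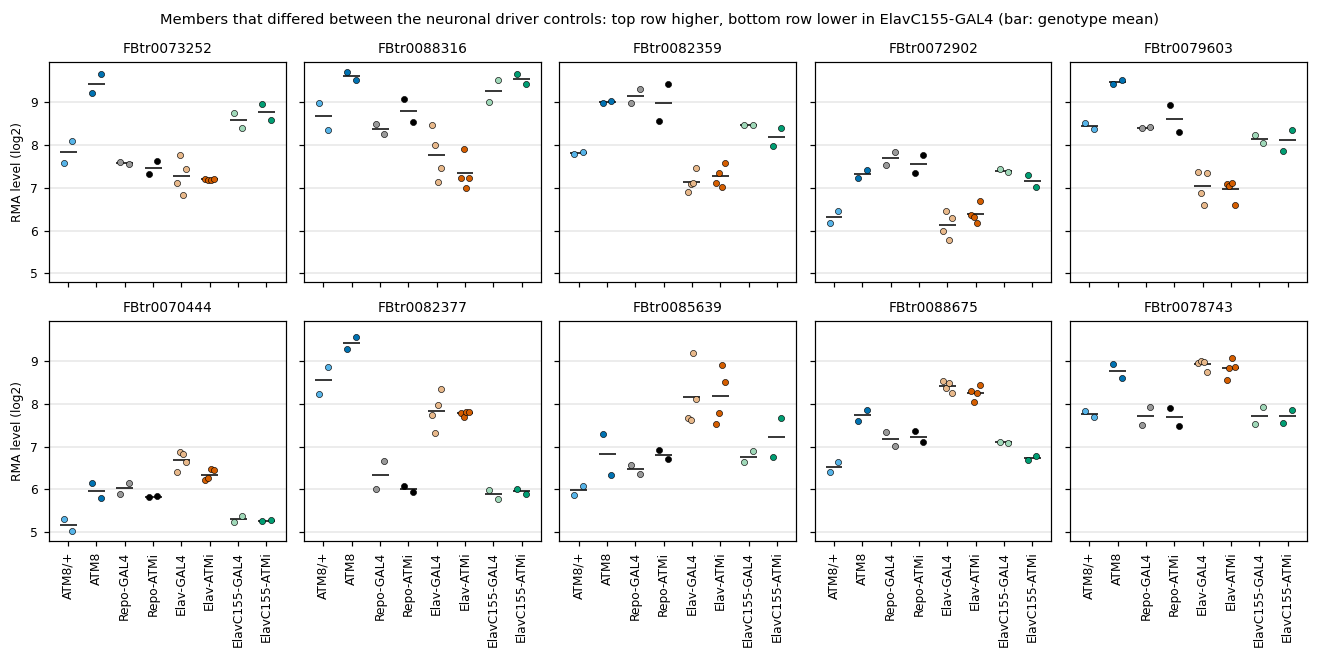
RMA levels (log2, vertical axis) in every array, with bars at genotype means, for the 5 members higher (top row) and the 5 lower (bottom row) in ElavC155-GAL4 than in Elav-GAL4 with the largest differences. FBtr0082377 lies between 7.31 and 8.35 in Elav-GAL4 and at 5.78 and 5.99 in ElavC155-GAL4, while its Elav-GAL4 and Elav-ATMi arrays overlap.

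The same driver lines with the RNA interference transgene were compared in other arrays. Between Elav-ATMi and ElavC155-ATMi, 31 members differed at limma's adjusted p under 0.05, 19 higher and 12 lower in ElavC155-ATMi, and 18.7% of all transcripts did. Of the 31 members called between the controls, 19 were called here in the same direction, which is 61.3% of each list, and 0 in the opposite direction. Over all transcripts 1900 were shared in the same direction, 55.5% of those called between the controls and 65.6% of those called between the RNA interference lines, so the members' share lay between these. The bounds of the rule hold the 2 line differences of a member within 1 of each other, so this sharing is in part fixed by the choice of members. With the dimmest 25% of transcripts left out, 24 of the 51 members kept differed (47.1% against 21.4% of the transcripts kept). The count was 50 with array weights (49.5% of members against 30.6% of all transcripts). It was 18 when replicate 1 of ElavC155-ATMi was left out (17.8% against 9.33%) and 13 when its replicate 2 was (12.9% against 5.75%).

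Members were also looked at in the order of their identifier numbers, which the rule did not use. What that order stands for is not given in the sources used here. Of the 101 members, 15 (14.9%) had another member within 10 numbers, as did 9.46% of the 15372 other transcripts. These 15 fell into 5 pairs and a run of 5, FBtr0082565, FBtr0082569, FBtr0082571, FBtr0082572 and FBtr0082573. This neighbourhood was chosen after its values were seen.

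Within that run FBtr0082571, FBtr0082572 and FBtr0082573 are consecutive, and in all 3 both ATM8 genotypes lay above every driver array. FBtr0082571 had 6.40 and 6.62 in heterozygotes and 6.72 and 7.97 in homozygotes, with driver arrays between 5.13 and 6.27. FBtr0082573 had 6.97 and 6.80 in heterozygotes and 8.11 and 8.12 in homozygotes, with driver arrays between 5.18 and 6.60. Their differences of 0.84 and 1.23 were smaller than the 2.89 of FBtr0082572. The 21 other transcripts within 10 numbers of the run had differences between -1.06 and 0.54 with a median of 0.10, 12 of them above 0. The rule had left these 21 out, so their smaller differences are in part fixed by the choice of members.

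**Figure D5:**
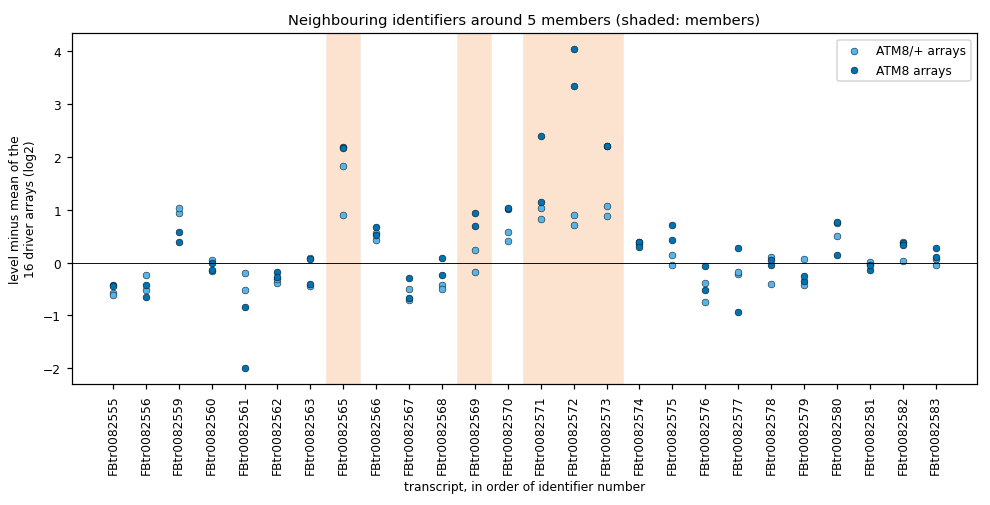
Levels in the ATM8/+ arrays (light) and ATM8 arrays (dark) minus the mean of the 16 driver arrays (log2, vertical axis) for 26 transcripts in order of identifier number, with the 5 members shaded. FBtr0082571, FBtr0082572 and FBtr0082573 have all 4 ATM8 arrays above 0, as do other transcripts shown, among them FBtr0082570 and FBtr0082566, which are not members. The differences between genotypes of the 21 transcripts that are not members lie between -1.06 and 0.54.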

How the data were processed

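The values analysed are the authors' deposited log2 RMA levels of single-colour NimbleGen arrays labelled with Cy3. RMA corrects background, normalizes between arrays and summarizes probes, and it is named without a version in the submitters' processing notes. The log2 scale was read from the values. Neither the probe filter nor the annotation release is stated. The table held 15473 transcripts, 20 arrays and 0 missing values. Precision is limited by the number of arrays. Names were sought in a RefSeq gene table (Release 6), which paired 17 transcripts with 1 gene and 27 with several, and 0 members.

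Members were found by the rule from genotype means. The members and lists were chosen with earlier results of these data known. The test was limma's (version 3.58.1, R 4.3.3), with moderated two-sided statistics from eBayes and a mean per genotype over 20 arrays (12 residual and 3.79 prior degrees of freedom) and Benjamini-Hochberg adjustment over all transcripts. The procedure was checked on simulated data with normal noise, only for the comparison of Elav-GAL4 with ElavC155-GAL4. The ATM8 comparison and those with RNA interference were not simulated. The labels call replicates biological and give no culture or cross of origin, and the p-values cover only the spread of these samples, which may be technical. The named transcripts are the 10 largest differences, 3 on each side of 0.8, the 5 largest called differences between neuronal controls in each direction, and the 3 brightest and 3 dimmest members. FBtr0084832, FBtr0076559, FBtr0083502, FBtr0083759 and the run of identifiers were chosen after their values were seen. Same-numbered Elav-GAL4 and Elav-ATMi arrays deviated together (correlations 0.119 to 0.243 over 4 pairs). Differently numbered arrays reached 0.389 (Elav-GAL4 3 with Elav-ATMi 4) and 0.238 (1 with 2). Same-numbered arrays also deviated together in ElavC155-GAL4 and ElavC155-ATMi (0.509) and in the 2 ATM8 genotypes (0.262). The main fit did not pair arrays, so its standard errors and p-values take no account of this. Replicate numbers entered only as a block in an alternative setting. With the numbers as a block 0 members changed with the Elav driver. Alternatives were a filter on dim transcripts, quantile normalization, array weights, a replicate block, only the arrays compared, other thresholds and leaving out each array.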

Additional observations from a re-analysis of the deposited data

Results flagged for a closer look

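Among the 27 named members, each group of 4 arrays (Elav-GAL4 and Elav-ATMi) was examined for 1 array far from the other 3. Of 54 groups 7 had one, where chance flags about 1 in 20 groups, or 2.7 here. The 2 with the widest departures were in Elav-ATMi replicate 1: FBtr0086177 at 10.28, against 8.42 to 8.57 in the other 3, and FBtr0086178 at 9.23, against 7.28 to 7.55. In the same array FBtr0083128 was low, at 9.13 against 9.34 to 9.38. The other Elav-ATMi departures were FBtr0079603, at 6.61 in replicate 4 against 7.04 to 7.12, and FBtr0076273, at 13.03 in replicate 3 against 13.60 to 13.68. In Elav-GAL4, FBtr0082900 was low in replicate 2, at 5.15 against 5.74 to 5.83, and FBtr0085182 in replicate 3, at 4.81 against 4.98 to 5.01. Except for FBtr0086177 and FBtr0086178, these departures were smaller than 0.7 on the log2 scale.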

How the results depend on the processing

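The number of members moved with the threshold: 158 at a difference of at least 0.7 and 44 at 1.0, against 101. With bounds of 0.4 and 0.6 it was 77 and 128, and after quantile normalization it was 114, of which 90 were among the 101. With any 1 array left out it ran from 92 to 165, with 71 to 99 of the 101 kept, highest without homozygote replicate 1 (165) or heterozygote replicate 1 (162). In every such setting at once, 26 of the 101 remained. Members called in the ATM8 comparison numbered 22 with only the arrays compared and 19 to 27 with 1 array left out. With the replicate number as a block there were 54 (1.87% of all transcripts called in either direction), and after quantile normalization 55 (2.18%). With the dimmest 25% of transcripts left out there were 33 among the 51 members kept (2.09% of the transcripts kept). The main fit called 44 members and 1.59% of all transcripts, and the share was 0.769% with only the arrays compared. Without any 1 of the ATM8 arrays the share was also lower, so the lower counts were not particular to the members. Members called between the neuronal controls numbered 17 with only the arrays compared, 11 to 33 with 1 array left out and 28 with the replicate block, and after quantile normalization 25 (17 higher and 8 lower). Between Elav-ATMi and ElavC155-ATMi they numbered 50 with array weights, 13 to 34 with 1 array left out and 32 with the replicate block. Of all transcripts, 22.1% were called between the neuronal controls in the main fit. That share was 11.3% with only the arrays compared, 22.2% with the replicate block and 19.7% after quantile normalization. Between Elav-ATMi and ElavC155-ATMi the share was 18.7% in the main fit, 30.6% with array weights and 18.6% with the replicate block. The replicate block changed no call of a named member between the neuronal controls. Same-numbered Repo arrays deviated in opposite directions (correlation -0.14), and with crossed numbers, a setting chosen after seeing the data, 0 members were called there. In the glial, Elav and ElavC155 comparisons 0 members were called in every setting that kept at least 2 arrays per genotype. Over all transcripts 7.23%, 1.85% and 1.25% were called there with array weights. The rule held these differences within its bounds, so the 0 was largely fixed by the choice of members. Both ATM8 genotypes lay above the others for 27 members against the 4 Repo arrays (17.4% of all transcripts) and for 29 after quantile normalization there (16.1%). Against all 16 driver arrays the count went from 10 to 15 with quantile normalization, while the share of all transcripts went from 2.64% to 5.42%. Of 105 alternative values for the 10 transcripts named between the neuronal controls, 99 kept the call and 6 lost it. Of 85 for the 10 largest ATM8 differences, 58 kept the call and 2 lost it, both of FBtr0073252 (adjusted p = 0.053 and 0.055 by limma, without heterozygote replicate 1 or homozygote replicate 2). A further 4 gained it, of FBtr0086177 and FBtr0079758, 21 were not called in either setting, and in both comparisons 0 turned direction. The cause was not tested. Leaving out 1 of 2 arrays assumes that the other varies like the remaining groups.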
